A study of Mus musculus with 8 samples.

Results

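ABC transporters of families A, B, C and G are membrane pumps that use ATP to move lipids, bile constituents, drugs and conjugates across membranes. Members were chosen by gene symbol, as genes named Abca, Abcb, Abcc or Abcg with a number, leaving out *Abcb11* and pseudogenes. This gave 41 of the 55385 gene identifiers in the deposited table, 16 in family A, 9 in B, 10 in C and 6 in G. In hepatocytes, the pumps of the canalicular membrane form bile by secreting phosphatidylcholine, sterols, bilirubin conjugates and drugs, whereas the C-family pumps of the sinusoidal membrane return conjugates and bile salts to the blood. Other members load cholesterol and phospholipid onto lipoproteins, work in mitochondria or lysosomes, or regulate potassium channels. Several are transcribed under nuclear receptors that sense bile acids, oxysterols and foreign compounds.

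Liver RNA was sequenced from 4 *Usp39*-HKO male mice and 4 male control littermates, with 1 library per mouse. Usp39 is a splicing factor. The *Usp39*-HKO mice carried *Usp39* alleles with exon 2 flanked by loxP sites together with an Albumin-Cre transgene, which drives Cre in hepatocytes. In which liver cells the gene was deleted was not tested here. The labels call the controls WT and the study describes them as littermates. Both groups were on the C57BL/6J background, 5 weeks old and fasted for 16 h before the livers were taken. Per-mouse values are given throughout in the order A468, A472, A473 and A475 for controls and A469, A470, A471 and A474 for *Usp39*-HKO mice. Counts on genes summed to between 8589636 and 10418450 per mouse, so 3 counts, taken as the floor, stood for 0.288 to 0.349 CPM (library-scaled counts), a limit of counting error only. Levels are the deposited FPKM, which scale counts to the exon length of a gene and to the total of the mouse, and only these are compared between genes.

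Principal components of all genes tested separated the genotypes on the first component, with 51.5% of the variance. On it A474 (score 56.0) lay apart from the other *Usp39*-HKO mice (28.6 to 29.5), and A472 (−24.0) from the other controls (−41.7 to −37.7). On the second, with 14.1%, mice A469 (score −38.9) and A472 (score −20.3) lay apart from the others of their groups. Control A475 stood apart in pancreas genes. The summed FPKM of 6 acinar markers, of which *Ctrb1* was the most abundant and 5 were at 0 in some mouse, was 527 in this library, between 0.405 and 0.687 in the other controls and between 0.891 and 2.45 in *Usp39*-HKO livers. In A474 the summed FPKM of 3 fetal hepatocyte markers was 902, against between 36.5 and 96.4 in the other 3 *Usp39*-HKO livers. Results with and without these 4 libraries are given with the counts of members. Hepatocyte markers were abundant in every liver, with summed FPKM of 7 markers between 11259 and 15136 and *Alb* the most abundant.

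*Usp39* (ENSMUSG00000056305, chr6:72318678-72345184, minus strand of GRCm38) had an FPKM of 9.35, 10.4, 8.76 and 9.78 in the control livers and 8.37, 8.63, 8.702 and 8.07 in the *Usp39*-HKO livers. All 4 *Usp39*-HKO livers lay under the controls, by little. On the log2 scale *Usp39*-HKO over control was −0.41 (SE 0.11, adjusted p = 0.0212). With 1 mouse left out the adjusted p was 0.0615 without A474 and 0.0547 without A475, and it stayed under 0.05 without each of the other 6 mice. Without scaling beyond the library total it was −0.18 (adjusted p = 0.247). Counts sum all exons, so reads outside exon 2 still count, and the gene total checks the deletion only in part.

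Of the 41 members, 29 reached an FPKM of 0.5 in 4 or more livers and were tested among 14340 genes. A member was called at an adjusted p under 0.05 over all these genes, and 15 members were called, 51.7% of those tested, against 22.5% of all genes tested. Of these, 7 were higher in *Usp39*-HKO livers (24.1% of members tested, 10.9% of all genes) and 8 were lower (27.6% of members, 11.6% of all genes). The median log2 fold change was −0.29 over the 29 members and −0.0015 over all genes, and the median size of change was 0.43 over members and 0.28 over all genes. Without scaling beyond the library total, the median log2 fold change was −0.06 over members and 0.24 over all genes. Of the 29 members, 20 (69.0%) had a log2 fold change under 0, against 50.1% of all genes, and without scaling beyond the library total 17 (58.6%) did, against 27.8% of all genes. These are counts over genes picked by symbol and are read only as a description. Of the members tested, *Abcc1* passed the filter only through *Usp39*-HKO mice, as did 194 of the 14340 genes, of which 162 were called higher. In bulk RNA, fewer cells of a type and less RNA per cell cannot be told apart.

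Scaling moved these values. TMM scaling, which sets the bulk of genes to no change, put the median gene at −0.0015, whereas without it the median shift over all genes was 0.24 on the log2 scale, upward in *Usp39*-HKO livers. A fold change is thus read against the median of all genes. Without scaling, 7 members were called higher, as 24.6% of all genes were, and 4 lower, as 4.85% of all genes were. The 7 higher members were the same, and the 4 lower were *Abcc6*, *Abcg8*, *Abcc3* and *Abcb10*. The study's threshold, set on DESeq2 results, was a p under 0.05 and a log2 change beyond 0.5 in either direction. Applied here to edgeR p-values before adjustment, it gave 6 members higher and 6 lower, beside 12.1% and 9.62% of all genes.

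Leaving out A475, the library with pancreas transcripts, left 3 members higher and 5 lower (7.11% and 7.13% of all genes). Leaving out A474 gave 3 and 6 (7.19% and 7.41% of all genes), A473 3 and 5 (6.85% and 6.62%), and A471 6 and 5 (8.91% and 8.4%). Without A469 there were 8 higher and 7 lower (12.9% and 11.6%), and without A472 6 and 6 (11.1% and 11.6%). Leaving out A470 gave 6 higher and 10 lower, beside 1469 and 1597 of the 14340 genes. Leaving out A468 gave 5 and 6, beside 1124 and 1135 genes. Over all genes, the number called was 1931 without A473, 2043 without A475 and 2094 without A474, against 3225 with every mouse. Of the 15 called members, 7 were called under all 16 alternatives fitted: *Abcb1a*, *Abcc9* and *Abca5*, which were higher, and *Abcc6*, *Abcg8*, *Abcc3* and *Abcb10*, which were lower. The others lost the call in some fits with 1 mouse left out. Over all 8 such fits, called or not, their log2 changes lay from 0.68 to 1.10 (*Abcc1*), 0.47 to 0.79 (*Abcc4*), 0.52 to 0.88 (*Abcc5*) and 0.37 to 0.53 (*Abcg1*). For the lower ones they lay from −0.45 to −0.27 (*Abca2*), −0.48 to −0.39 (*Abca6*), −0.60 to −0.45 (*Abcc10*) and −0.45 to −0.28 (*Abcg5*).

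**Figure D1:**
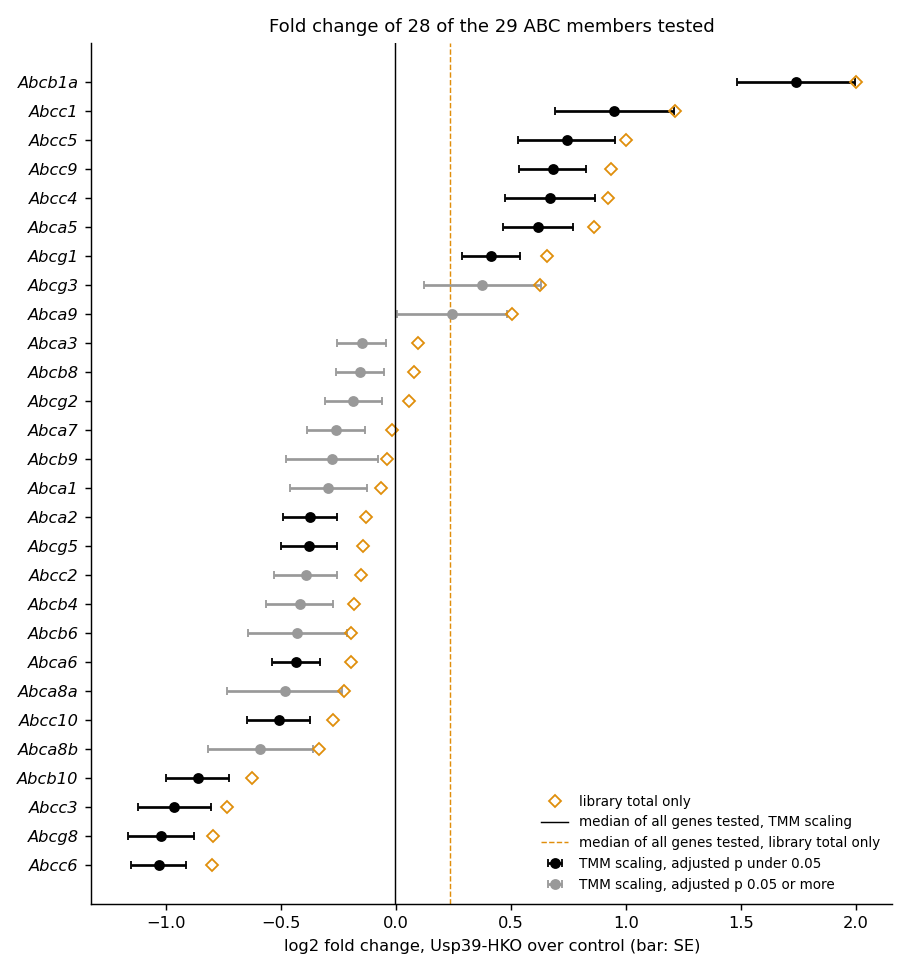
Log2 fold change between genotypes (*Usp39*-HKO over control) for 28 of the 29 members tested, as circles with the SE after TMM scaling (black, adjusted p under 0.05; grey, 0.05 or more) and as open diamonds without it. Vertical lines mark the median of all genes under each scaling, and *Abca3*, *Abcb8* and *Abcg2* lie under 0 with TMM scaling and above 0 without it.

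**Figure D2:**
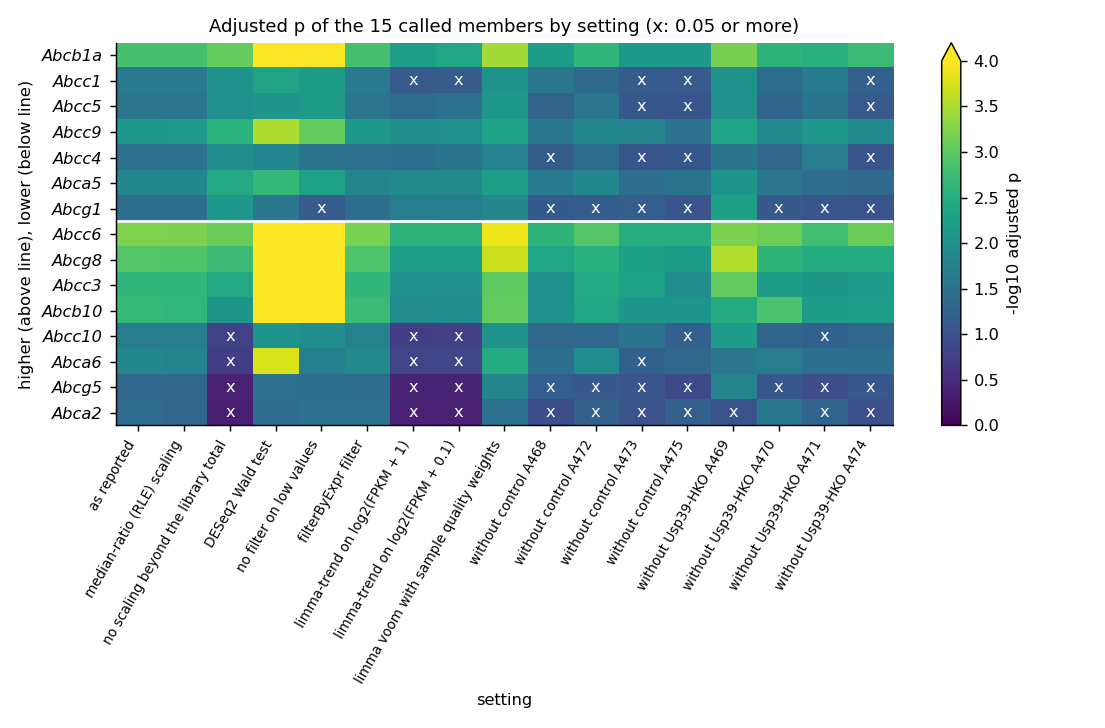
Adjusted p of the 15 called members (higher above the white line, lower below it) as reported and under 16 alternatives, coloured as −log10, with x where it was 0.05 or more. The entries of *Abcb1a*, *Abcc9*, *Abca5*, *Abcc6*, *Abcg8*, *Abcc3* and *Abcb10* carry no x, while *Abcc10*, *Abca6*, *Abcg5* and *Abca2* lose the call without scaling and *Abcc1* loses it in limma on FPKM.

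The higher members were scarcer in controls than the lower ones. Mean control FPKM of the 7 higher members had a median of 1.12 and a highest value of 6.86, and that of the 8 lower members had a median of 32.1 and a range from 3.84 to 86.4. The lowest, *Abcc1* at 0.335, passed the filter only through *Usp39*-HKO livers. The same control values entered the calls, and the contrast was not made over all genes, so it is read only as a description. The summed FPKM of all members was 626, 583, 578 and 625 in controls and 467, 562, 487 and 533 in *Usp39*-HKO livers, every *Usp39*-HKO liver below every control. *Abcc2*, *Abcb4*, *Abca6*, *Abcc3* and *Abcg5* made up between 61.3% and 66.6% of that sum in each mouse. In deposited FPKM the groups did not overlap for 11 of the 29 members tested (37.9%), beside 28.7% of all genes, and in FPKM divided by the TMM factor for 15 of 29 (51.7%), beside 24.9% of all genes. Where groups of 4 and 4 do not overlap, the two-sided exact permutation p over the 70 assignments of mice is 0.0286, the smallest it can be. In all 7 higher members A474 had the highest FPKM of the 8 mice. These FPKM are without TMM scaling, and A474 had the largest TMM factor, 1.19 against 1.01 to 1.09 in the other *Usp39*-HKO mice. After TMM scaling *Abcg1* was highest in A470, at 3.95.

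**Figure D3:**
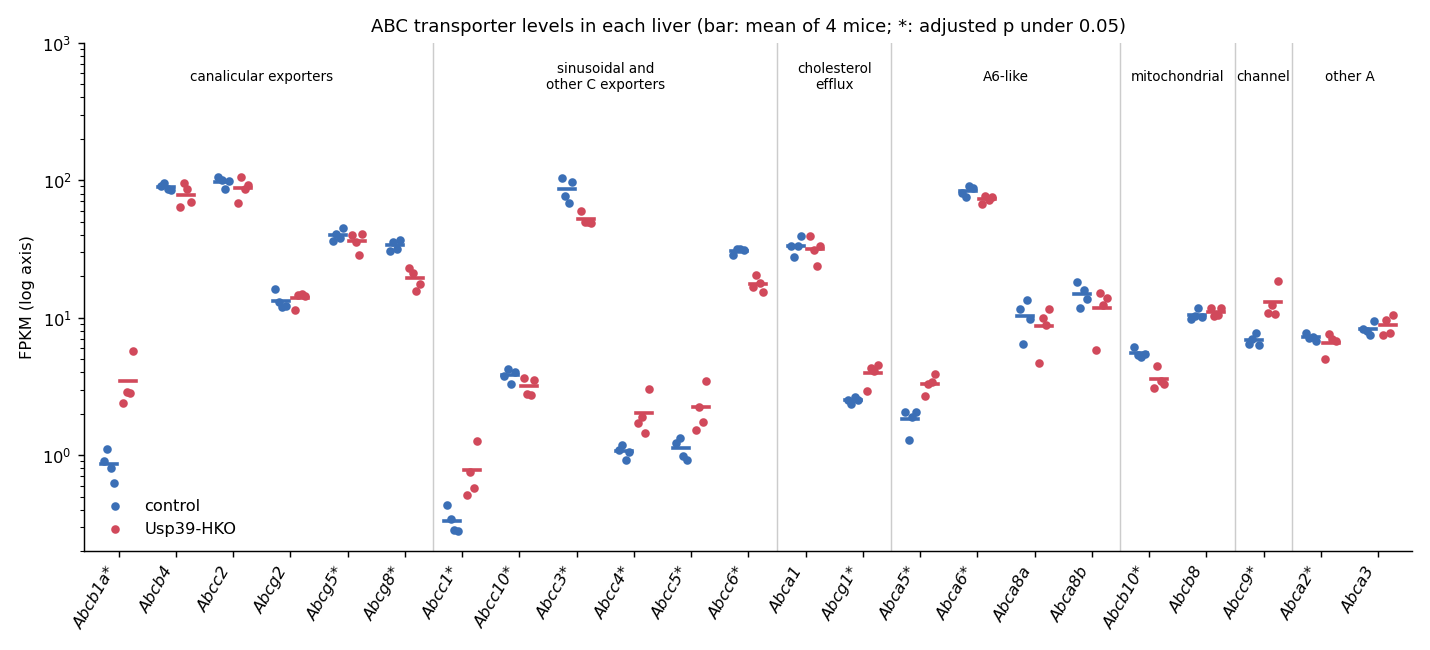
FPKM (log axis) of the 23 members described in full, ordered by role, with 1 point per liver and a bar at the mean of 4 mice, and * for an adjusted p under 0.05. The abundant bile pumps *Abcc2* and *Abcb4* overlap between genotypes, while *Abcb1a*, *Abcc1*, *Abcc4* and *Abcc5* have mean FPKM from 0.335 to 1.12 in controls and are higher in every *Usp39*-HKO liver.

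The sterol pump of bile is a dimer of ABCG5 and ABCG8, encoded by neighbouring genes on chromosome 17 that are read in opposite directions and whose transcripts share 82 exon bases on opposite strands. *Abcg8* (ENSMUSG00000024254, chr17:84676302-84700333, plus strand) had an FPKM of 30.5, 35.3, 31.5 and 37.02 in the control livers and 22.9, 21.3, 15.6 and 17.6 in the *Usp39*-HKO livers. Every *Usp39*-HKO liver was below every control, with A471 lowest. The mean was 33.6 ± 3.07 (SD, n = 4) in controls and 19.4 ± 3.35 (SD, n = 4) in *Usp39*-HKO livers, the log2 fold change was −1.02 (SE 0.14, adjusted p = 0.00119), and with 1 mouse left out it lay from −1.13 to −0.94 (adjusted p from 0.000286 to 0.00637). *Abcg5* (ENSMUSG00000040505, chr17:84658234-84683011, minus strand) had an FPKM of 36.3, 40.8, 37.9 and 44.6 in the control livers and 40.1, 35.5, 28.4 and 40.6 in the *Usp39*-HKO livers. The groups overlapped, since A469 and A474 lay among the controls, and they did not overlap after TMM scaling. The log2 change of *Abcg5* was −0.38 (SE 0.12, adjusted p = 0.0462), and the call was lost with an adjusted p of 0.0644 without A468, 0.0826 without A470, 0.113 without A471, 0.0769 without A472, 0.0884 without A473, 0.0822 without A474 and 0.131 without A475, and without scaling (adjusted p = 0.43).

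Within a mouse, the ratio of *Abcg8* to *Abcg5* FPKM does not depend on scaling between mice. It was 0.8401, 0.864, 0.832 and 0.831 in controls and 0.571, 0.6002, 0.548 and 0.434 in *Usp39*-HKO livers. The controls lay within a narrow band, every *Usp39*-HKO liver lay under it, and A474 was lowest. The mean was 0.842 ± 0.0154 (SD, n = 4) in controls and 0.538 ± 0.07296 (SD, n = 4) in *Usp39*-HKO livers. The ratio was chosen after the values were seen and is given without a test. The RefSeq promoter windows (GRCm38.p6, 250 bases before to 50 bases after the start, 5′ to 3′) are shown because the starts of both genes, 110 bases apart on opposite strands, lie in 1 shared stretch. Capitals mark the 209 bases that both windows hold, read on opposite strands.
Abcg5, chr17:84682962-84683261, minus strand: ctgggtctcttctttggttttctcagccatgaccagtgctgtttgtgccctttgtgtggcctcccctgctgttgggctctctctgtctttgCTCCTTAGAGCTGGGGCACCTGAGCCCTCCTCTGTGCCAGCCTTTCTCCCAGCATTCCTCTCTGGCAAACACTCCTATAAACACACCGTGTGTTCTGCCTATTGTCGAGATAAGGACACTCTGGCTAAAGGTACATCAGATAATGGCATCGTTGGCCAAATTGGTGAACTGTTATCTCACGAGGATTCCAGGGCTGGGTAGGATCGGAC
Abcg8, chr17:84682871-84683170, plus strand: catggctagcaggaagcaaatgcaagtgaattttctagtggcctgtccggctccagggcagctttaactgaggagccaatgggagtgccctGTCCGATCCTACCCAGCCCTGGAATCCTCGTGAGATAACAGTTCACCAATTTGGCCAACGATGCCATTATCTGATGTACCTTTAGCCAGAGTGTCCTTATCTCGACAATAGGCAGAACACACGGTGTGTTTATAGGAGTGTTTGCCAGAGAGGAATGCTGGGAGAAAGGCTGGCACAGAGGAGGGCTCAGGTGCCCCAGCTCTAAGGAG
GENCODE starts *Abcg8* 6819 bases upstream of the RefSeq start printed here, at the start of a second RefSeq window, so its annotated gene reaches into *Abcg5*.

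**Figure D4:**
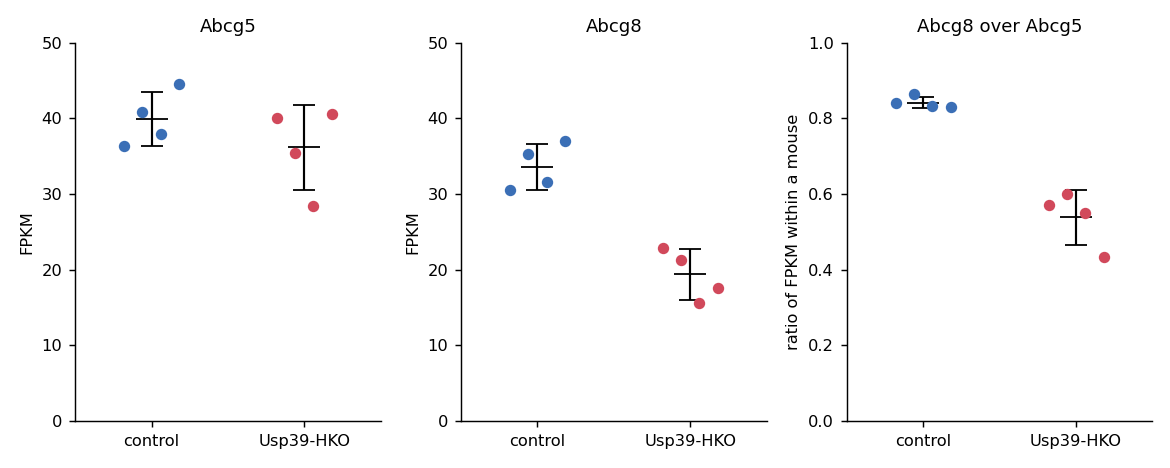
FPKM of *Abcg5* and *Abcg8* and their ratio within each mouse, with 1 point per liver and the mean ± SD of 4 mice. *Abcg5* overlaps between genotypes in this unscaled unit, *Abcg8* does not, and the ratio is between 0.831 and 0.864 in controls and between 0.434 and 0.6002 in *Usp39*-HKO livers.

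*Abcb1a* (ENSMUSG00000040584, chr5:8660077-8748575, plus strand) encodes a P-glycoprotein, a drug pump of the canalicular membrane. Its FPKM was 0.914, 1.105, 0.807 and 0.631 in the control livers and 2.403, 2.88, 2.85 and 5.698 in the *Usp39*-HKO livers. All *Usp39*-HKO livers were above the controls, with A474 far above the other 3. The mean was 0.864 ± 0.198 (SD, n = 4) in controls and 3.46 ± 1.51 (SD, n = 4) in *Usp39*-HKO livers, and the log2 fold change was 1.74 (SE 0.26, adjusted p = 0.00144). With 1 mouse left out it lay from 1.45 to 1.88 (adjusted p from 0.000661 to 0.0074), and it was 1.45 without A474 (adjusted p = 0.00189). *Abcb1b*, the other P-glycoprotein gene, stayed under the filter with 11 to 25 counts per mouse. With no filter on low values it differed by 0.25 on the log2 scale (adjusted p = 0.679), a comparison made after its values were seen. *Abcb1a* shares a stretch of 177 bases with *Abcb1b* at 98.9% identity and one of 183 bases with *Abcb4* at 97.8%. A transcript model on the opposite strand covers 553 of its exon bases, and strandedness is not given in the sources used here.

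The 3 other canalicular pumps described in full were not called. *Abcb4*, the pump that moves phosphatidylcholine into bile, had an FPKM of 90.4, 95.03, 86.7 and 84.9 in the control livers and 63.9, 94.6, 85.7 and 69.8 in the *Usp39*-HKO livers. A470 and A471 were at control levels, while A469 and A474 were lower, so the groups overlapped, and they did not after TMM scaling. At a log2 change of −0.42 (SE 0.14, adjusted p = 0.0578) it was not called, though it was called lower under 4 of the 16 alternatives: DESeq2 (adjusted p = 0.0235), filterByExpr, voom with sample weights, and A470 left out (adjusted p = 0.028). *Abcc2*, which secretes bilirubin glucuronides, had the highest mean FPKM of the members, 105, 101, 86.4 and 98.6 in the control livers and 67.8, 106, 85.6 and 92.8 in the *Usp39*-HKO livers. A469 was the lowest liver and A470 the highest, so the groups overlapped. The log2 change of *Abcc2* was −0.39 (SE 0.14, adjusted p = 0.0588), and it was called lower under 3 alternatives: DESeq2 (adjusted p = 0.0232), filterByExpr, and A470 left out (adjusted p = 0.025). *Abcg2*, a pump for urate and drugs, had an FPKM of 16.2, 12.97, 11.9 and 12.2 in the control livers and 11.4, 14.6, 14.9 and 14.4 in the *Usp39*-HKO livers. The groups overlapped, with A469 lowest and control A468 highest. *Abcg2* had a log2 change of −0.18 (SE 0.12, adjusted p = 0.315), which was −0.07 without A468 and 0.06, above 0, without scaling. Over the 8 fits with 1 mouse left out, the log2 change lay from −0.52 to −0.33 for *Abcb4*, −0.49 to −0.29 for *Abcc2* and −0.23 to −0.07 for *Abcg2*. Without scaling it was −0.18 for *Abcb4* (adjusted p = 0.327) and −0.15 for *Abcc2* (adjusted p = 0.444). *Abcb11*, the bile salt pump left out of the members, had a mean FPKM of 64.4 and 68.2 in controls and *Usp39*-HKO livers and a log2 fold change of −0.17 (SE 0.20, adjusted p = 0.583), which was above 0 without scaling (0.09) and without A469 (0.03).

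Of the sinusoidal and other C-family exporters, 3 were higher, 3 lower, and *Abcc12* was under the filter. *Abcc6* (ENSMUSG00000030834, chr7:45967555-46030302, minus strand), through which hepatocytes release ATP that yields the calcification inhibitor pyrophosphate, had an FPKM of 28.7, 31.4, 31.6 and 31.1 in the control livers and 16.7, 20.5, 17.95 and 15.3 in the *Usp39*-HKO livers. The controls were close together and every *Usp39*-HKO liver was lower, with A474 lowest. The mean was 30.7 ± 1.35 (SD, n = 4) in controls and 17.6 ± 2.18 (SD, n = 4) in *Usp39*-HKO livers, and the log2 fold change was −1.03 (SE 0.12, adjusted p = 0.000591). With 1 mouse left out it lay from −1.11 to −0.93 (adjusted p from 0.000605 to 0.00324). *Abcc3* (ENSMUSG00000020865, chr11:94343295-94392997, minus strand), which exports glucuronides to the blood, had an FPKM of 103, 77.1, 68.6 and 96.4 in the control livers and 59.6, 49.4, 49.5 and 48.8 in the *Usp39*-HKO livers. Controls varied widely, and *Usp39*-HKO livers were lower, 3 of them near 49 with A469 above them. The mean was 86.4 ± 16.2 (SD, n = 4) in controls and 51.8 ± 5.18 (SD, n = 4) in *Usp39*-HKO livers, the log2 fold change was −0.96 (SE 0.16, adjusted p = 0.00234), and with 1 mouse left out it lay from −1.06 to −0.86 (adjusted p from 0.0009 to 0.011). *Abcc10* (chr17:46303221-46328352, minus strand), an exporter of lipophilic drugs, had an FPKM of 3.76, 4.24, 3.31 and 4.05 in the control livers and 3.65, 2.79, 2.72 and 3.54 in the *Usp39*-HKO livers. The groups overlapped in FPKM and did not after TMM scaling. For *Abcc10* the log2 change was −0.51 (SE 0.14, adjusted p = 0.0211). The call was lost with an adjusted p of 0.0582 without A471 and 0.0589 without A475, and without scaling (adjusted p = 0.162).

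The 3 higher exporters were scarce in controls. *Abcc4* (ENSMUSG00000032849, chr14:118482692-118706219, minus strand), which moves bile salts with glutathione and cyclic nucleotides into the blood, had an FPKM of 1.09, 1.18, 0.929 and 1.05 in the control livers and 1.71, 1.89, 1.46 and 3.02 in the *Usp39*-HKO livers. Every *Usp39*-HKO liver was above every control, with A474 highest. The mean was 1.06 ± 0.106 (SD, n = 4) in controls and 2.02 ± 0.691 (SD, n = 4) in *Usp39*-HKO livers, and the log2 fold change was 0.67 (SE 0.20, adjusted p = 0.0312). The call was lost with an adjusted p of 0.0651 without A468, 0.0912 without A473, 0.0873 without A474 and 0.0805 without A475. The log2 fold change of *Abcc4* was then 0.69, 0.62, 0.47 and 0.65, in that order. *Abcc5* (chr16:20331303-20426394, minus strand), an exporter of cyclic nucleotides, had an FPKM of 1.22, 1.34, 0.992 and 0.926 in the control livers and 1.52, 2.24, 1.76 and 3.45 in the *Usp39*-HKO livers. Its *Usp39*-HKO livers all lay above the controls, A469 nearest to them. The log2 fold change was 0.74 (SE 0.21, adjusted p = 0.0268), and the call was lost with an adjusted p of 0.08 without A473, 0.0706 without A474 and 0.0839 without A475. *Abcc1* (chr16:14361558-14475737, plus strand), which exports glutathione conjugates, had an FPKM of 0.433, 0.341, 0.285 and 0.2798 in the control livers and 0.511, 0.754, 0.576 and 1.26 in the *Usp39*-HKO livers. No control reached 0.5 and every *Usp39*-HKO liver did, so it entered the test only through the group in which it was high. The log2 fold change was 0.95 (SE 0.26, adjusted p = 0.022), and the call was lost with an adjusted p of 0.0677 without A473, 0.0599 without A474 and 0.0704 without A475, and in limma on log2(FPKM + 1) (adjusted p = 0.0698). Within a mouse, the ratio of *Abcc4* to *Abcc3* FPKM, chosen after the values were seen, was 0.0106, 0.0154, 0.0135 and 0.0109 in controls and 0.0287, 0.0382, 0.0295 and 0.0619 in *Usp39*-HKO livers, all above the controls.

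RefSeq promoter windows of 300 bases matched 32 of the 41 members, 37 windows in all. Searched on both strands, AGGTCA, a hexamer bound by nuclear receptors, was in 6 of them and in 16.3% of all 32851 windows. GCGTG, the core bound by the aryl hydrocarbon receptor, was in 10 and in 32.4% of all windows. TGACNNNGC, the core of the antioxidant response element bound by Nrf2, was in 7, of 5 genes (*Abca8b*, *Abcb1a*, *Abcc10*, *Abcc2* and *Abcc4*), and in 12.4% of all windows. AGGTCA and TGACNNNGC can overlap, as they do in *Abcc10*. A match is a description of letters and not a site in use. The windows of *Abcb1a*, *Abcc4* and *Abcc2* are shown because *Abcb1a* and *Abcc4* were called higher and *Abcc2* was not. For each gene a window was picked that holds TGACNNNGC. *Abcc4* has another window with a match, chr14:118676882-118677181, which is not shown. The match was also in *Abcc10*, which was called lower, and in *Abca8b*, which was not called. Capitals mark TGACNNNGC on either strand.
Abcb1a, chr5:8566841-8567140, plus strand: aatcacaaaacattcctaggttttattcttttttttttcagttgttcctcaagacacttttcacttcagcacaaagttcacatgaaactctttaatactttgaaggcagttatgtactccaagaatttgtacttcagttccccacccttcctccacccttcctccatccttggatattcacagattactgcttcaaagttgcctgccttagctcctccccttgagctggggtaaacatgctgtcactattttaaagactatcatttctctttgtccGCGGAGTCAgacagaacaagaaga
Abcc4, chr14:118706170-118706469, minus strand: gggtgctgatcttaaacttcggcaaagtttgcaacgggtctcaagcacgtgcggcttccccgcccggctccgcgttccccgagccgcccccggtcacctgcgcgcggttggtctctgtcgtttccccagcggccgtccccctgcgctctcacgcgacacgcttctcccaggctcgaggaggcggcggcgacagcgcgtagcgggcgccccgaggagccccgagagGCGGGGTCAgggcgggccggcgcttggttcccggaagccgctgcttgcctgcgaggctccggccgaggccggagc
Abcc2, chr19:43782058-43782357, plus strand: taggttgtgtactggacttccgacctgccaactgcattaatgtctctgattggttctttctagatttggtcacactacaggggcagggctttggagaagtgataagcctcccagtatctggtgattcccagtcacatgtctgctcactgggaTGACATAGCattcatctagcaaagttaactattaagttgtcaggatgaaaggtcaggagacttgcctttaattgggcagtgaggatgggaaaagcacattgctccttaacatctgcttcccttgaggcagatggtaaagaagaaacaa
The RefSeq start of *Abcb1a* lies 92986 bases upstream of its GENCODE start, and that of *Abcc2* 116 bases downstream.

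Of the 4 cholesterol and phospholipid efflux pumps, *Abcg4* was under the filter and *Abca7* was not called. *Abca1*, which loads apolipoprotein A-I with lipid, had an FPKM of 32.97, 27.5, 33.5 and 39.1 in the control livers and 39.03, 31.2, 23.6 and 33.4 in the *Usp39*-HKO livers. The groups overlapped, with A471 lowest and A475 and A469 highest. The log2 fold change was −0.29 (SE 0.17, adjusted p = 0.234) and lay from −0.43 to −0.18 with 1 mouse left out, with a lower call only in voom with sample weights (adjusted p = 0.0369). Without scaling the change of *Abca1* was −0.06 (adjusted p = 0.794). *Abcg1* (chr17:31057675-31117988, plus strand), which passes cholesterol to high-density lipoprotein and is expressed in macrophages, had an FPKM of 2.52, 2.35, 2.66 and 2.51 in the control livers and 2.904, 4.29, 4.09 and 4.55 in the *Usp39*-HKO livers. The *Usp39*-HKO livers were above the controls, A469 only just, and the groups overlapped after TMM scaling. Its log2 fold change was 0.41 (SE 0.13, adjusted p = 0.0354), and the call was lost with an adjusted p of 0.0729 without A468, 0.0769 without A470, 0.0849 without A471, 0.0665 without A472, 0.0643 without A473, 0.0875 without A474 and 0.0876 without A475, and with no filter on low values (adjusted p = 0.0686). Summed FPKM of 8 macrophage markers was 263, 335, 248 and 272 in controls and 427, 505, 449 and 699 in *Usp39*-HKO livers, with *Clec4f* the most abundant, none at 0 in any mouse, and 6 of 8 called higher. Their part in the *Abcg1* result was not tested.

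The A6-like genes lie in a row on the minus strand of chromosome 11, in the order *Abca8b*, *Abca8a*, *Abca9*, *Abca6* and *Abca5*, with gaps of 29788, 4770, 8623 and 17592 bases. *Abca5* (ENSMUSG00000018800, chr11:110269369-110337716, minus strand), a pump of lysosomes and endosomes, had an FPKM of 2.05, 1.29, 1.89 and 2.07 in the control livers and 2.67, 3.27, 3.43 and 3.89 in the *Usp39*-HKO livers. Every *Usp39*-HKO liver was above every control, with A472 the lowest control and A474 the highest of all. The mean was 1.83 ± 0.367 (SD, n = 4) in controls and 3.31 ± 0.504 (SD, n = 4) in *Usp39*-HKO livers, the log2 fold change was 0.62 (SE 0.15, adjusted p = 0.0143), and with 1 mouse left out it lay from 0.48 to 0.70 (adjusted p from 0.00804 to 0.0412). Its neighbour *Abca6* (chr11:110176820-110251776, minus strand), whose substrate is not well known, had an FPKM of 80.6, 74.8, 89.98 and 87.6 in the control livers and 66.8, 76.4, 71.9 and 75.2 in the *Usp39*-HKO livers. A470 and A474 lay above the lowest control, A472, so the groups overlapped, and they did not after TMM scaling. The log2 fold change was −0.43 (SE 0.11, adjusted p = 0.0141), and the call was lost with an adjusted p of 0.0571 without A473, and without scaling (adjusted p = 0.186). *Abca8b* had an FPKM of 18.1, 11.9, 15.9 and 13.6 in the control livers and 5.82, 15.04, 12.4 and 13.8 in the *Usp39*-HKO livers, and A469 was far below the rest. *Abca8b* was not called, with a log2 change of −0.59 (SE 0.23, adjusted p = 0.0887), but was called lower with no filter on low values and in voom with sample weights. *Abca8a* had an FPKM of 11.5, 6.43, 13.4 and 9.73 in the control livers and 4.64, 10.02, 8.91 and 11.5 in the *Usp39*-HKO livers, again with A469 lowest and control A472 next. Nor was *Abca8a* called, with a log2 change of −0.48 (SE 0.25, adjusted p = 0.191). Leaving out 1 mouse gave log2 changes from −0.74 to −0.36 for *Abca8b* and from −0.65 to −0.27 for *Abca8a*, both smallest without A469. *Abca9* was not called, so adjacent genes of 1 cluster went in different directions: *Abca5* was higher and *Abca6* lower under TMM scaling, and without scaling *Abca6* kept its sign with no call.

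Several B-family members work in mitochondria or lysosomes. *Abcb10* (ENSMUSG00000031974, chr8:123952459-123983122, minus strand), a pump of the inner mitochondrial membrane that erythroid cells need to make heme, had an FPKM of 6.07, 5.39, 5.16 and 5.42 in the control livers and 3.06, 4.44, 3.48 and 3.28 in the *Usp39*-HKO livers. The groups were apart, with A470 nearest to the controls. The mean was 5.51 ± 0.3904 (SD, n = 4) in controls and 3.57 ± 0.609 (SD, n = 4) in *Usp39*-HKO livers, the log2 fold change was −0.86 (SE 0.14, adjusted p = 0.00206), and with 1 mouse left out it lay from −0.98 to −0.79 (adjusted p from 0.00136 to 0.00874). An antisense transcript covers 444 of its exon bases. Summed FPKM of 4 erythroid markers was 294, 629, 432 and 408 in controls and 139, 241, 305 and 142 in *Usp39*-HKO livers. The groups overlapped, with A471 above the lowest control, *Hbb-bs* was the most abundant, 1 marker was at 0 in 1 mouse, and 3 of 4 were called lower. Their part in the *Abcb10* result was not tested. *Abcb8*, another mitochondrial pump, had an FPKM of 9.86, 10.3, 11.7 and 10.1 in the control livers and 11.8, 10.3, 10.5 and 11.7 in the *Usp39*-HKO livers. Both groups spanned nearly the same range. The log2 change of *Abcb8* was −0.16 (SE 0.10, adjusted p = 0.309), from −0.20 to −0.10 with 1 mouse left out, and was 0.08 without scaling, above 0.

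*Abcc9* (ENSMUSG00000030249, chr6:142587862-142702315, minus strand) encodes a regulatory subunit of ATP-sensitive potassium channels, known from muscle and from cells around vessels. Its FPKM was 6.41, 6.98, 7.703 and 6.36 in the control livers and 10.9, 12.4, 10.6 and 18.6 in the *Usp39*-HKO livers. Every *Usp39*-HKO liver was above every control, with A474 highest. The mean was 6.86 ± 0.625 (SD, n = 4) in controls and 13.1 ± 3.76 (SD, n = 4) in *Usp39*-HKO livers, the log2 fold change was 0.68 (SE 0.14, adjusted p = 0.00726), and with 1 mouse left out it lay from 0.52 to 0.76 (adjusted p from 0.00463 to 0.0304). Summed FPKM of 9 stellate cell and fibroblast markers was 89.6, 80.8, 83.2 and 77.4 in controls and 120.4, 214, 177 and 240.5 in *Usp39*-HKO livers. The groups were apart, with A474 highest and A469 lowest of the 4, *Dcn* was the most abundant, none was at 0 in any mouse, and 7 of 9 were called higher. Their part in the *Abcc9* result was not tested. An antisense transcript covers 158 exon bases of the gene.

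Of the other A-family lipid pumps, *Abca2* (chr2:25428703-25448540, plus strand), a pump of late endosomes and lysosomes, had an FPKM of 7.71, 7.17, 7.23 and 6.74 in the control livers and 5.03, 7.55, 6.96 and 6.75 in the *Usp39*-HKO livers. A470, A471 and A474 lay among the controls and A469 under them, and after TMM scaling the groups did not overlap. The log2 change of *Abca2* was −0.37 (SE 0.12, adjusted p = 0.0404), and the call was lost with an adjusted p of 0.109 without A468, 0.0919 without A469, 0.051 without A471, 0.0602 without A472, 0.0961 without A473, 0.104 without A474 and 0.0604 without A475, and without scaling (adjusted p = 0.463). *Abca3*, which loads phospholipid into lamellar bodies in lung, had an FPKM of 8.296, 7.996, 7.44 and 9.41 in the control livers and 7.43, 9.63, 7.78 and 10.5 in the *Usp39*-HKO livers. The groups overlapped, with A474 highest. Its log2 fold change was −0.15 (SE 0.11, adjusted p = 0.351), from −0.20 to −0.08 with 1 mouse left out, and was 0.10 without scaling, above 0.

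The 5 remaining members tested had a mean FPKM under 5 and were not called. *Abca7*, *Abcb6* and *Abcb9* had log2 fold changes of −0.26, −0.43 and −0.28, and *Abcg3* and *Abca9* of 0.38 and 0.24. Without scaling these were −0.02, −0.19, −0.04, 0.63 and 0.50, in that order. The value of *Abca9* was 0.00826 without A474 and 0.44 without A469, and with 1 mouse left out the values lay from 0.26 to 0.60 for *Abcg3*, −0.31 to −0.20 for *Abca7*, −0.59 to −0.32 for *Abcb6* and −0.34 to −0.17 for *Abcb9*. *Abcg3*, a gene found in rodents, was called without A469 (adjusted p = 0.0387). A transcript on the same strand covers 2932 of the *Abcb6* exon bases, 55.2%, so its counts depend on how shared reads were assigned. Under the filter were 12 members: *Abca4*, *Abca12*, *Abca13*, *Abca14*, *Abca15*, *Abca16*, *Abca17*, *Abcb1b*, *Abcb5*, *Abcc8*, *Abcc12* and *Abcg4*. Their highest FPKM in any mouse was 0.307 and their highest count was 25, both in *Abcb1b*. *Abca12*, *Abca16*, *Abcb5* and *Abcc8* had no count in any mouse, which at this depth allows a level of up to the floor of 3 counts.

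Other marker lists are given beside these results. Summed FPKM of 6 cholangiocyte markers was 3.74, 4.12, 3.62 and 4.47 in controls and 5.85, 12.97, 14.8 and 26.8 in *Usp39*-HKO livers. A469 was nearest to the controls and A474 highest, *Epcam* was the most abundant, 1 marker was at 0 in 1 mouse, and 4 of 6 were called higher. Summed FPKM of 5 proliferation markers was 3.48, 6.65, 2.77 and 3.82 in controls and 27.8, 20.1, 15.2 and 28.8 in *Usp39*-HKO livers, with *Ccnb1* the most abundant, none at 0, and 5 of 5 called higher. Fetal hepatocyte markers summed to 2.78, 7.25, 3.76 and 4.53 in controls and 74.2, 96.4, 36.5 and 902 in *Usp39*-HKO livers, with *H19* the most abundant, none at 0, and 2 of 3 called higher. In FPKM without TMM scaling, the sums for cholangiocyte, proliferation, fetal hepatocyte, macrophage and stellate cell markers were highest in A474, as were the 7 higher members. Divided by the TMM factors, the proliferation sum was highest in A469 and *Abcg1* in A470. The part of these markers in the results was not tested. Hepatocyte markers summed to 13029.6, 13254, 13405 and 12188 in controls and 15136, 11259, 13052 and 11436 in *Usp39*-HKO livers, the groups overlapped, none was at 0, and 3 of 7 were called lower. Endothelial marker sums overlapped, between 99.1 and 111 in controls and between 105 and 109 in *Usp39*-HKO livers, with *Clec4g* the most abundant, none at 0, and 2 of 7 called lower. Neither sum, in FPKM without TMM scaling, separated the genotypes. The endothelial sum divided by the TMM factors was lower in every *Usp39*-HKO liver than in every control, while the hepatocyte sums so divided overlapped. After TMM scaling the median log2 fold change was −0.48 over the hepatocyte markers and 0.02 over the endothelial markers. The called endothelial markers *Lyve1* and *Stab2* had log2 fold changes of −0.997 and −0.369. The others, not called, lay from −0.155 (*Kdr*) to 0.447 (*Vwf*). Lymphocyte markers (1 of 5 called, *Nkg7* most abundant, none at 0) summed to 5.73, 5.63, 4.97 and 5.11 in controls and 6.23, 8.47, 6.26 and 8.58 in *Usp39*-HKO livers. Neutrophil markers (0 of 4 called, *S100a9* most abundant, 1 at 0 in some mice) summed to 21.8, 48.8, 30.4 and 32.8 in controls and 85.8, 28.8, 14.2 and 44.99 in *Usp39*-HKO livers. In FPKM without TMM scaling, all *Usp39*-HKO livers were above the controls in the lymphocyte sum, and the groups overlapped in the neutrophil sum, with A469 highest. Divided by the TMM factors, the lymphocyte sums overlapped. With 1 mouse left out, the number called was as low as 3 for macrophage markers (without A473), 1 for fetal hepatocyte markers (without A468, A472, A473 or A475), 0 for endothelial markers (without A473), 0 for hepatocyte markers (without A468, A470, A471, A473, A474 or A475) and 0 for lymphocyte markers (without A470, A472, A473, A474 or A475).

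**Figure D5:**
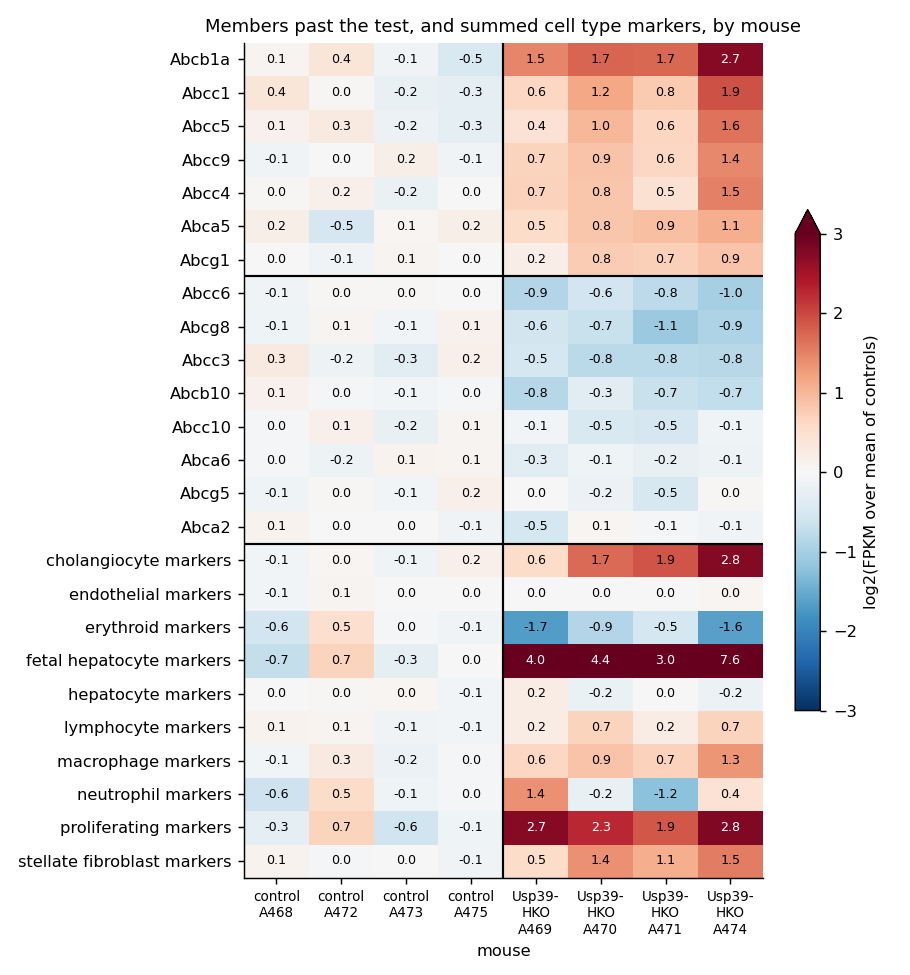
Log2 of FPKM over the control mean for the 15 called members (7 higher, then 8 lower) and for the summed markers of 10 lists, in each of the 8 mice, with the colour scale ending at 3. Values are without TMM scaling, A474 has the highest value of each of the 7 higher members, and *Abcc10*, *Abca6*, *Abcg5* and *Abca2* overlap between genotypes. Pancreas markers are left out.

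Genes that are related to these pumps or act with them were counted from 4 lists, to be read beside 10.9% higher and 11.6% lower and a median log2 fold change of −0.0015 over all genes. Of 12 other ABC genes, 11 were tested, 0 were higher and 2 lower, with a median of −0.17. These were *Abcd4* at −0.87 (SE 0.20, adjusted p = 0.00999) and *Abcf3* at −0.63 (SE 0.11, adjusted p = 0.00306). Without A472 the number called was 4, with *Abcd2* (adjusted p = 0.00146), named after its values were seen, among those added. Of 18 regulators of transporter genes, all tested, 2 were higher and 6 lower, with a median log2 fold change of −0.29. *Nr1i3*, which encodes the receptor CAR, had a mean FPKM of 11.4 ± 1.83 (SD, n = 4) in controls and 5.35 ± 0.887 (SD, n = 4) in *Usp39*-HKO livers and a log2 fold change of −1.31 (SE 0.16, adjusted p = 0.000758). *Ppara*, a receptor of fasting fatty acids, had a log2 fold change of −0.83 (SE 0.13, adjusted p = 0.00209), and *Trp53*, the gene of p53, of 0.77 (SE 0.14, adjusted p = 0.00348). *Nr0b2*, a repressor in bile acid synthesis, had −0.63 (SE 0.20, adjusted p = 0.0415), and its call was lost with an adjusted p of 0.0664 without A470, 0.0898 without A472, 0.0777 without A473, 0.0706 without A474 and 0.103 without A475, and without scaling (adjusted p = 0.196). The other called regulators, named after their values were seen, were *Nfe2l2* (Nrf2), which was higher, and *Nr1h4*, *Nr1h3* and *Nr5a2*, which were lower and were not called without scaling. With each mouse left out in turn, *Nfe2l2* and *Nr1h3* were called all 8 times, *Nr5a2* 2 times (highest adjusted p = 0.0879) and *Nr1h4* only 1 time (highest adjusted p = 0.0855). The number of regulators called lay between 5 (without A473, A474 or A475) and 10 (without A469) with 1 mouse left out.

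Of 12 genes for the structure and traffic of the apical membrane, all tested, 2 were higher and 3 lower, with a median log2 fold change of −0.13. *Ezr* and *Msn*, which link the membrane to actin, had log2 fold changes of 1.25 (SE 0.26, adjusted p = 0.0061) and 0.63 (SE 0.14, adjusted p = 0.00891) and were called with each mouse left out in turn. *Pdzk1* and *Slc9a3r1*, scaffolds of the membrane, had −0.54 (SE 0.16, adjusted p = 0.0319) and −0.47 (SE 0.13, adjusted p = 0.028). The adjusted p of *Pdzk1* was 0.0975 without A468, 0.0711 without A469, 0.0521 without A470, 0.0682 without A472 and 0.073 without A474, and that of *Slc9a3r1* was 0.0635 without A468, 0.0659 without A470, 0.0688 without A471, 0.088 without A473, 0.0704 without A474 and 0.0834 without A475. These calls and that of *Tmem30a*, named after its values were seen, were lost without scaling. *Tmem30a* (adjusted p = 0.0457) was called with only 1 of the 8 mice left out (highest adjusted p = 0.115). The number of apical genes called lay between 2 (without A468 or A474) and 3 with 1 mouse left out. Of 13 partners in sterol handling, 12 were tested, 1 was higher and 3 lower, with a median of −0.03. *Pltp*, which moves phospholipid between lipoproteins, had a log2 fold change of 0.57 (SE 0.14, adjusted p = 0.016), and its call was lost with an adjusted p of 0.0539 without A473 and 0.0563 without A475. *Npc1*, which releases cholesterol from lysosomes, had −0.55 (SE 0.14, adjusted p = 0.0182) and *Lcat*, which esterifies cholesterol, had −0.47 (SE 0.14, adjusted p = 0.0345). The adjusted p was 0.0517 without A471, 0.0649 without A473 and 0.0511 without A474 for *Npc1* and 0.0566 without A470, 0.0851 without A471, 0.0974 without A473, 0.0798 without A474 and 0.0998 without A475 for *Lcat*. These 2 lower calls were also lost without scaling. With 1 mouse left out, the number called lay between 1 (without A473) and 6 (without A469).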

How the data were processed

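RNA-seq libraries of 8 mouse livers, 4 per genotype, were analysed. The authors trimmed reads with Trim Galore 0.6.1 after FastQC 0.11.9, aligned them to mm10 with HISAT2 and deposited raw counts per gene from featureCounts. FPKM were also deposited, computed by the authors from those counts, the exon length and the mouse total. The annotation release, strandedness and handling of multi-mapped reads are not given in the sources used here. The deposited table also holds the authors' DESeq2 comparison (mean signal, log2 fold change, its error and statistic, p-values and a call), which was not used.

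Repeated entries of an identifier were read once. Depth is given in the report as counts per mouse. The 14340 genes at the FPKM minimum were compared between genotypes with edgeR 4.0.16 (quasi-likelihood, TMM scaling, Benjamini-Hochberg adjustment, R 4.3.3), without covariates, since the labels name no batch, litter or pairing. No paired analysis was possible because no replicate number is shared between the groups. The SE of a log2 change is its size divided by the square root of F. Deposited FPKM were compared with two-sided exact permutation tests. Alternatives were median-ratio scaling, no scaling, DESeq2 1.42.0, no filter, filterByExpr, limma 3.58.1 on log2(FPKM + 1) and log2(FPKM + 0.1), voom with sample weights, each mouse left out, and the study's cutoff. Positions and exon overlaps are from GENCODE vM21 (GRCm38), shared sequence (at least 150 bases at 97% identity) from BLAST+ 2.17.0, promoter windows from RefSeq GRCm38.p6, and tables were made with Python 3.11.15.

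The rule for description in full was a call or a mean FPKM of at least 5, and 23 of the 24 members that meet it are described. From each comparison list, genes among the 4 called ones with the largest change are given, and from each marker list the sums and counts. Members and lists were chosen with earlier results of these data known.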

Additional observations from a re-analysis of the deposited data

Results flagged for a closer look

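Among 74 groups of 4 mice (24 members with a call or a mean FPKM of at least 5, *Abcb11*, *Usp39* and 11 marker sums, by genotype), 5 held a mouse far from the other 3 (a gap past Dixon's 95% limit for 4 values), 6.76% of the groups, and chance gives about 1 in 20. In *Usp39*-HKO mouse A474 the FPKM of *Abcb1a* was 5.70, against 2.40 to 2.88 in the other 3. In *Usp39*-HKO mouse A469 the FPKM of *Abcc3* was 59.6, above 48.8 to 49.5 in the others. The same mouse had an *Abcg2* FPKM of 11.4, below the others at 14.4 to 14.9. Fetal hepatocyte markers summed to an FPKM of 902.3 in A474, against 36.5 to 96.4. Pancreas acinar markers summed to 526.9 in control A475, against 0.405 to 0.687 in the other controls.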

How the results depend on the processing

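Over 16 alternatives, the 15 called members gave 240 values, of which 191 were still called, 49 were not, and 0 changed direction. The 9 members with a mean FPKM of at least 5 and no call gave 144 values, of which 14 were called and 9 changed direction. Lower members numbered 8 as reported and 4 without scaling, 4 in limma on log2(FPKM + 1) and 4 on log2(FPKM + 0.1). These 3 settings leave in the median shift between genotypes. Of all 14340 genes tested, 1664 were called lower as reported, and 696, 637 and 626 under these settings, in that order. Under the same 3 settings, in that order, the log2 fold change was 0.0951, 0.0755 and 0.0825 for *Abca3*, 0.0788, 0.0703 and 0.0762 for *Abcb8*, and 0.0567, 0.0531 and 0.0568 for *Abcg2*. With 1 mouse left out, genes called lay between 1931 and 3510, higher members between 3 and 8, lower members between 5 and 10, and called members still called between 8 and 14, and beyond the smaller number of mice the cause was not tested. Depth limits the 12 members under the filter, whose highest count was 25. The 4 mice per genotype limit the smallest exact p, and protein, cell sorting and splice forms were not analysed here.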
